A study of Mus musculus with 6 samples.

Results

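The platelet-derived growth factor (PDGF) family was described across the cell classes of the injured mouse heart. It comprised 6 genes, taken by symbol from the 32285 genes of the matrices. Of these, 4 encode the ligand chains, Pdgfa, Pdgfb, Pdgfc and Pdgfd, and 2 encode the receptors, Pdgfra and Pdgfrb. The source was the ventricles of male mice aged 8 to 12 weeks, from which cardiomyocytes had been held back, and the method was 10x single-cell RNA sequencing, which counts transcripts at their 3' ends. Wild-type (WT) mice were of the strain C57BL/6JRj, and knockout (KO) mice of the strain B6.Cg-Trpm4tm1.2-PG, which lacks the ion channel gene Trpm4. Mice of both genotypes were taken 24 h after a sham operation, or 24 h or 72 h after ligation of the LAD coronary artery to cause an infarct. There is no sham library at 72 h. All groups share the digestion with thermolysin and papain, the meshes that hold back cardiomyocytes, and the sort of live cells by Calcein-AM and DAPI.

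Each of the 6 groups was 1 library, made from the pooled cells of 4 mice. No difference below therefore has a replicate check, no test was made, and the spread between mice and between operations is not in any interval. Levels are the unique molecular identifiers (UMIs, counted molecules) of a gene per 1000000 UMIs of a cell class in a library (CPM), with exact 95% Poisson intervals. Differences are log2 ratios of these levels with the exact conditional interval of 2 counts. The intervals cover counting error only.

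PDGF chains are secreted as dimers. PDGF-B is made by endothelial cells, is held near the vessel by its basic tail, and draws pericytes and smooth muscle cells, which carry the receptor PDGFRβ, onto the vessel wall. PDGF-A acts on PDGFRα, the receptor that marks fibroblasts of the heart and their progenitors. PDGF-C and PDGF-D are secreted with an inhibitory CUB domain that extracellular proteases remove; PDGF-C then acts mainly on PDGFRα and PDGF-D on PDGFRβ. Both receptors are tyrosine kinases, and in the healing infarct they are known for recruiting mural cells and for activating fibroblasts.

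The cells were assigned to classes by marker genes that did not include any of the 6 genes, and the 6 genes were also left out of the clustering. Of 34940 deposited cells with 199708815 UMIs in all, 32030 were kept, between 3361 and 6821 per library, in 35 clusters; 5 clusters with 1633 cells stayed without a name. The KO 72 h library stood apart: its median of 1351 UMIs per kept cell compares with 3072 to 8011 in the others. It also held between 88.3% and 100% of the cells of 5 clusters, among them clusters of fibroblasts, mural cells and monocyte/macrophage cells, and the levels and ratios of KO 72 h that rest on them are also given without them where enough cells were left. None of them was endothelial. Pairs of libraries shared between 3 and 14 cell barcodes, at most 0.206% of the smaller library. Trpm4 was counted in every library, at 8.44, 5.48 and 4.18 CPM in WT sham, WT 24 h and WT 72 h and at 5.89, 3.48 and 2.47 CPM in the KO libraries in the same order. Where the deletion lies relative to the counted 3' end is not given in the sources used here, so these counts do not check the genotype labels.

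The ligands and receptors were held by different classes, as the plot of levels by class and library shows. By the median level over libraries, Pdgfb and Pdgfd were highest in endothelial cells, Pdgfa and Pdgfrb in mural cells (pericytes and smooth muscle cells) and Pdgfra in fibroblasts. At 72 h the Pdgfra level of mesothelial cells was above that of fibroblasts, and in KO sham the Pdgfa level of platelets, on 11 UMIs, was above that of mural cells. Endothelial cells kept in each library numbered 2337, 715 and 252 in WT sham, WT 24 h and WT 72 h, and 3072, 746 and 669 in KO sham, KO 24 h and KO 72 h. Fibroblasts numbered 378, 199 and 149 in WT and 456, 182 and 1257 in KO. Mural cells numbered 240, 104 and 65 in WT and 313, 144 and 360 in KO, and monocyte/macrophage cells 1015, 658 and 2116 in WT and 786, 1436 and 2825 in KO.

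**Figure D1:**
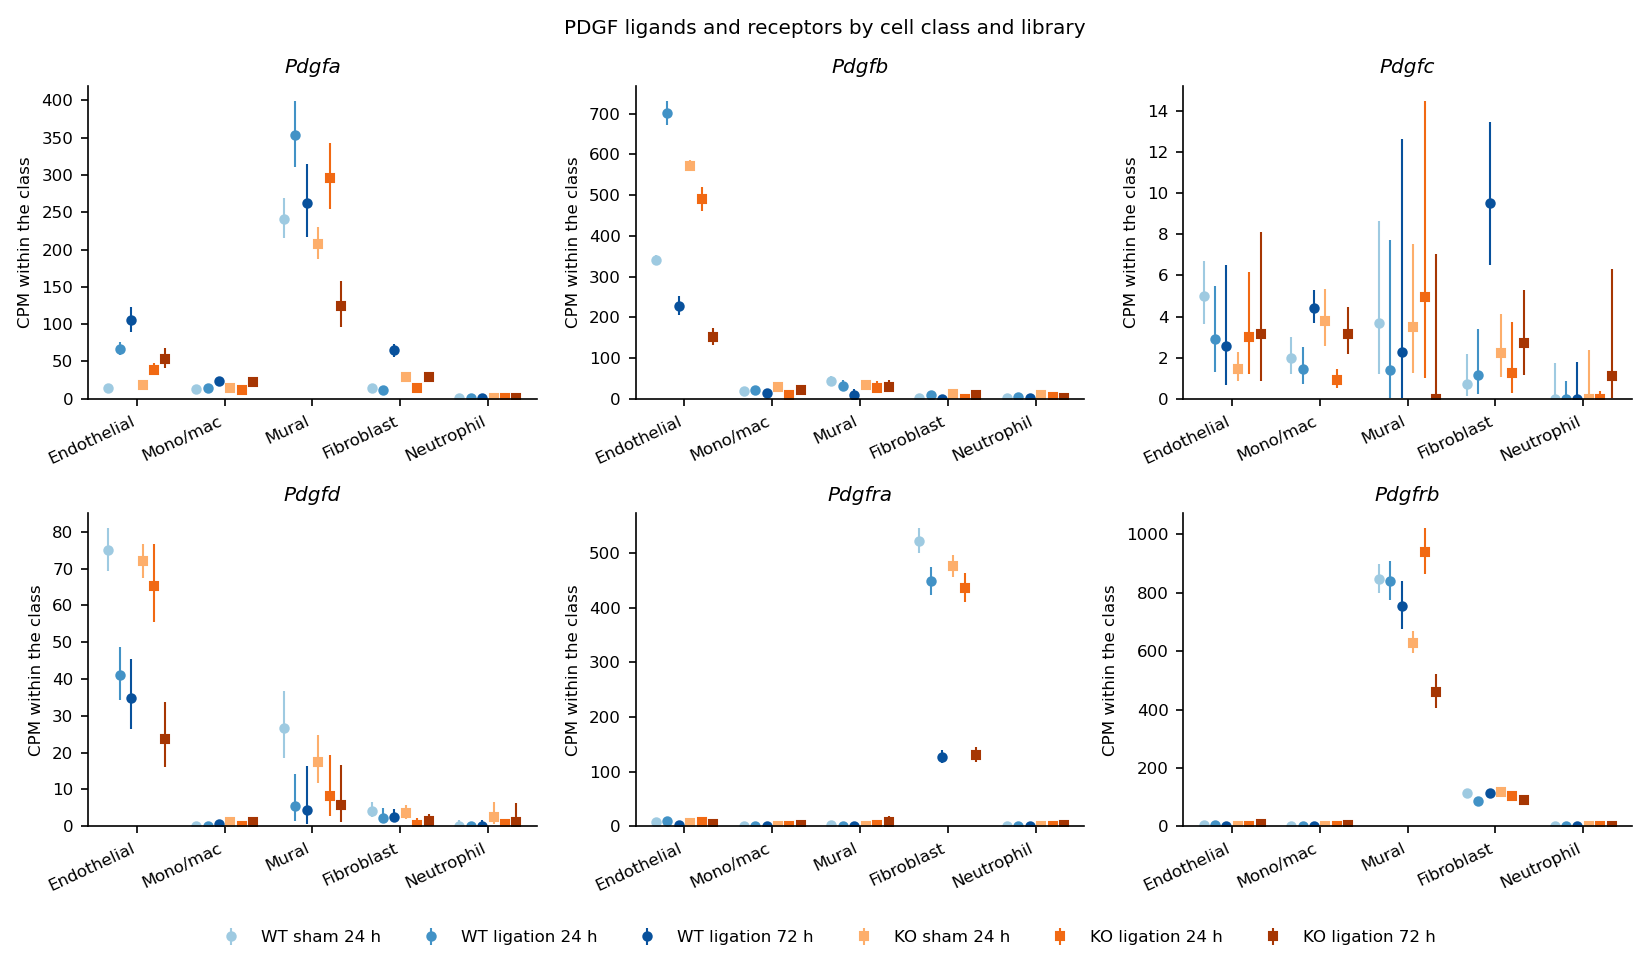
Level of each gene (CPM within the class, linear axis from 0, a scale of its own in each panel) in 5 cell classes and 6 libraries; circles are WT, squares KO, darker shades are later, and bars are exact 95% Poisson intervals (counting error only). Pdgfb stands at 152 to 701 CPM in endothelial cells and at 43.6 CPM or less in the other classes shown, and Pdgfra at 128 to 522 CPM in fibroblasts.

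Pdgfb encodes the ligand chain that recruits mural cells. In endothelial cells it stood at 339.7 CPM (interval 328 to 352) in WT sham, 701 (672 to 731) in WT 24 h and 228 (205 to 253) in WT 72 h. In KO it stood at 572 CPM (559 to 585) in sham, 489.8 (462 to 519) at 24 h and 152 (131 to 175) at 72 h. WT 24 h was the highest library and the 72 h libraries were the lowest of both genotypes, and none of the 6 intervals overlapped another. Across the other classes of at least 50 cells, the class with the next highest median over libraries was smooth muscle, at 44.0 CPM, below the lowest endothelial library. In the cardiomyocytes of KO sham it stood at 101 CPM, where the 9 endothelial markers summed to 1261 CPM.

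Between WT sham and WT 24 h the log2 ratio of endothelial Pdgfb was 1.05 (0.97 to 1.13), whereas between KO sham and KO 24 h it was −0.22 (−0.32 to −0.13). KO exceeded WT at sham (0.75, 0.69 to 0.81) and was below WT at 24 h (−0.52, −0.62 to −0.41) and at 72 h (−0.59, −0.85 to −0.33). The opposite directions between sham and 24 h thus rest on 4 libraries that differ already at sham. From 24 h to 72 h the level was lower in both genotypes, by a log2 ratio of −1.62 (−1.78 to −1.46) in WT and −1.69 (−1.92 to −1.47) in KO. The WT ratio between 24 h and sham was under 2-fold with every cell weighted equally (0.89), with cells thinned to 1000 UMIs (0.91) and with TMM scaling (0.93). With equal weights the KO ratio was −0.26 and the difference between KO and WT at 72 h was −1.29.

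Within the clusters of endothelial cells, Pdgfb at 24 h was above sham in each WT cluster measured, and the KO ratio differed between clusters. In the capillary-like cluster (led by Aqp1, Timp4 and Fmo1) Pdgfb stood at 336, 716 and 338 CPM in WT sham, 24 h and 72 h and at 573, 499 and 247 CPM in KO. In the arterial-like cluster (Rbp7, Stmn2, Btnl9) it stood at 435 and 879.6 CPM in WT sham and 24 h and at 682 and 546 CPM in KO; this cluster held fewer than 50 cells in both 72 h libraries. The angiogenic-like cluster (Vwa1, Mcam, Ecscr) was named from a list of which 3 genes were detected, none of them among its leading genes. In this cluster Pdgfb stood at 325, 692 and 229 CPM in WT and at 483, 619 and 156 CPM in KO. The KO ratio between 24 h and sham was therefore positive in that cluster (0.36, 0.14 to 0.57) and negative in the capillary-like cluster (−0.20, −0.34 to −0.06) and the arterial-like cluster (−0.32, −0.49 to −0.15). At 24 h KO against WT was −0.16 (−0.36 to 0.03) in the angiogenic-like cluster, −0.52 in the capillary-like and −0.69 in the arterial-like. In WT the level at 72 h was near that at sham in the capillary-like cluster and below it in the angiogenic-like one. The endocardial-like cluster (Cytl1, Vwf, H19), the lining of the chambers, stood at only 31.8 CPM in WT sham and 67.8 CPM in KO sham, as the plot of ligands by endothelial cluster shows.

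Of endothelial cells, 63.0% in WT sham, 68.8% in WT 24 h and 52.8% in WT 72 h had at least 1 UMI of Pdgfb, against 76.1%, 58.6% and 17.6% in KO. Thinned to 1000 UMIs per cell, the shares were 29.6%, 42.9% and 23.0% in WT and 41.4%, 35.1% and 14.5% in KO. Cells with fewer than 1000 UMIs were left out of every thinned value in this report. Thinned values of KO 72 h, the shallowest library, therefore describe its deeper cells only. Neutrophils, taken as the background, had 0.21% to 1.34% of cells with a UMI and at most 0.455% after thinning. The median depth of endothelial cells was 3290, 3643 and 2944.5 UMIs in WT and 3410.5, 2636.5 and 1169 in KO, and that of neutrophils 1940.5 to 3158. The order of the libraries was the same in the thinned shares as in the levels, with WT 24 h and KO sham the highest.

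A list of 14 immediate-early genes, which respond within minutes to stimulation and also to tissue dissociation, moved with endothelial Pdgfb in WT. Its summed level in endothelial cells was 1179, 2626 and 1203 CPM in WT sham, 24 h and 72 h. In KO it was 1040 CPM at sham, 1482 CPM at 24 h and 2126 CPM at 72 h, where Pdgfb was lowest. In WT the list was also highest at 24 h in fibroblasts (2548 CPM), mural cells (2526 CPM), monocyte/macrophage cells (6394 CPM) and neutrophils (19970 CPM). The part of these genes in the result was not tested. Endothelial cells of the KO 72 h library also carried 4348 CPM of the 13 monocyte/macrophage markers, all of them detected, against 95.8 to 309 CPM in the other libraries. The 8 neutrophil markers summed to 1725 CPM in KO 24 h and 3690 CPM in KO 72 h, against 91.3 to 343 CPM in the other libraries. The 5 erythroid markers summed to 7213, 17.9 and 30485 CPM in WT sham, 24 h and 72 h, and so ran opposite to Pdgfb, and to 9061, 2765 and 12245 CPM in KO. The part of these in the result was not tested either.

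**Figure D2:**
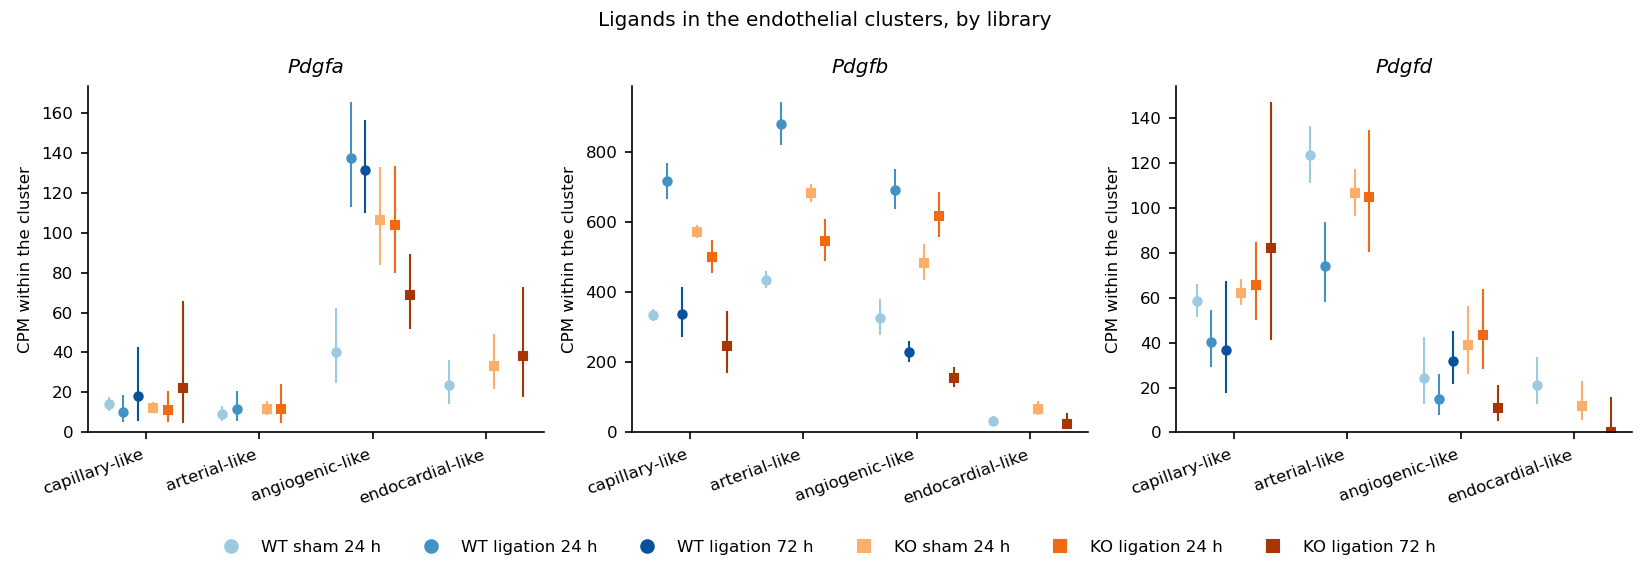
Level of 3 ligand genes (CPM within the cluster, axis from 0) in the 4 endothelial clusters, for clusters with at least 50 cells in a library; circles are WT, squares KO, darker shades are later, and bars are exact 95% Poisson intervals. Pdgfa stands at 40.4 to 137 CPM in the angiogenic-like cluster against 10.4 to 22.4 CPM in the capillary-like cluster, and Pdgfd is at 74.4 to 124 CPM in the arterial-like cluster, above the other clusters of the same library in each of the 4 libraries where that cluster is shown.

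Macrophages are known as a further source of PDGF-B. In monocyte/macrophage cells, Pdgfb stood at 18.0, 22.2 and 15.3 CPM in WT sham, 24 h and 72 h and at 28.8, 8.65 and 22.1 CPM in KO. KO 24 h was the lowest library and KO sham the highest. The log2 ratio between 24 h and sham was 0.30 (0.00 to 0.60) in WT and −1.74 (−2.04 to −1.44) in KO, and between 72 h and 24 h it was −0.54 (−0.79 to −0.28) in WT and 1.35 (1.05 to 1.66) in KO. With doublets removed at 1.6% per 1000 cells in place of 0.8%, the WT ratio between 24 h and sham was −0.02, so its direction was not kept, and with cells thinned to 1000 UMIs the WT ratio between 72 h and 24 h was −1.16. Without the clusters mostly from KO 72 h, the KO ratio between 72 h and 24 h was 1.31. The 9 endothelial markers, all detected, summed to 51.4, 28.3 and 93.5 CPM in these cells in WT and to 192, 15.2 and 199 CPM in KO, and so moved with Pdgfb in KO. Cells with a UMI of Cdh5, Kdr, Egfl7, Emcn or Tie1, which are part of those 9 markers, were then left out. Cells with UMIs of only the other markers stayed in. In the cells left, Pdgfb stood at 17.0, 23.6 and 14.0 CPM in WT and at 19.4, 8.25 and 18.1 CPM in KO. The KO ratio between 24 h and sham was then −1.23, and the excess of KO over WT at sham was 0.19 in place of 0.68.

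Macrophages differed among themselves in Pdgfb. The cluster led by Mgl2, Lyve1 and Cbr2, which also carries Cd163 and Folr2 of tissue-resident macrophages, stood at 53.4 CPM in WT sham and 65.8 CPM in KO sham, and at 124 CPM in WT 24 h and 70.3 CPM in KO 24 h. Its ratio between 24 h and sham was 1.22 (0.80 to 1.64) in WT and 0.09 (−0.30 to 0.48) in KO. The cluster led by Ccl24, Arg1 and Ccl9 stood at 11.2 and 10.9 CPM in WT sham and 24 h (−0.04, −0.62 to 0.53) and at 9.09 and 3.21 CPM in KO (−1.50, −2.23 to −0.79). Different clusters made up the class at different times. The Mgl2 cluster, the higher of both in Pdgfb, held 21.7%, 10.2% and 2.08% of the class in WT sham, 24 h and 72 h and 27.99%, 8.01% and 1.49% in KO. The Ccl24 cluster held 43.6% and 51.5% of it in WT sham and 24 h and 43.5% and 49.6% in KO, whereas at 72 h a cluster led by Fcrls, Syngr1 and Ms4a7 held 32.6% in WT and a cluster led by Mpeg1 and Gm42418 held 44.2% in KO.

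The class that held most UMIs of the ligand was not always the class of the highest level. Of all Pdgfb UMIs, endothelial cells held 88.2%, 82.8% and 40.1% in WT sham, 24 h and 72 h and 93.7%, 80.03% and 36.6% in KO. Monocyte/macrophage cells held 48.9% in WT 72 h and 43.9% in KO 72 h, the larger share at that time in both genotypes, although their level in CPM was far below the endothelial one. A share of UMIs depends on the number of cells of each class and on their depth, and these were not separated. With cells thinned to 1000 UMIs, and those with fewer left out, the order turned. Endothelial cells then held 62.7% in WT 72 h and 51.1% in KO 72 h, and monocyte/macrophage cells 29.4% and 30.5%.

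**Figure D3:**
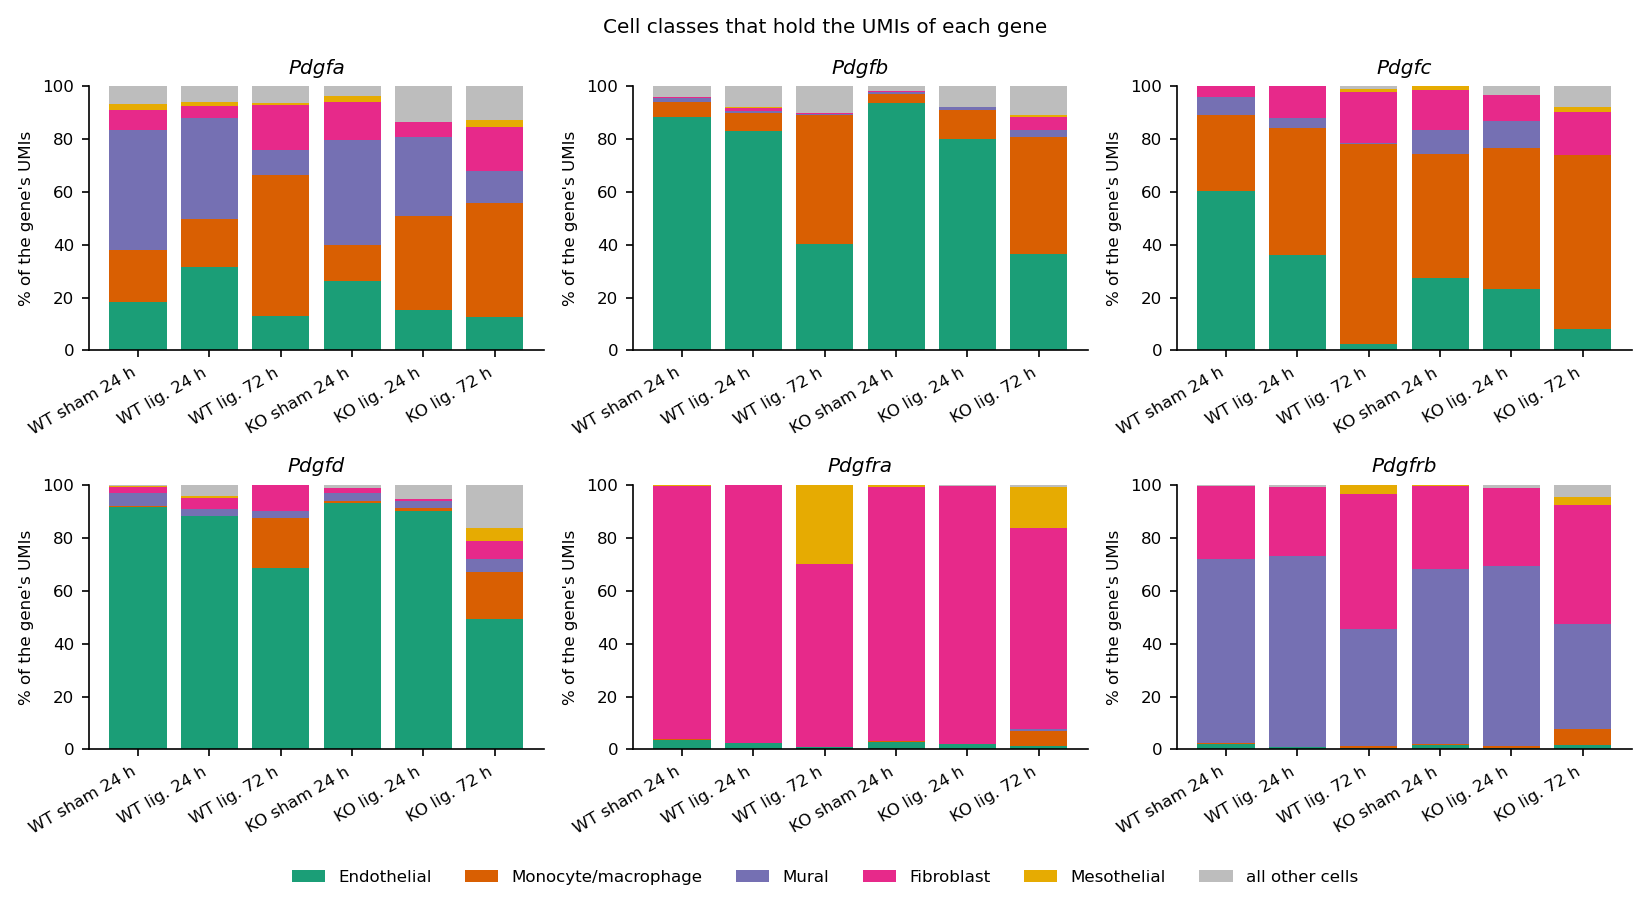
Share of each gene's UMIs (percent, bars from 0 to 100) held by 5 cell classes and by all other kept cells, in each library; the shares depend on how many cells of a class a library holds. The endothelial share of Pdgfb is 80.03% or more in the sham and 24 h libraries and 40.1% or less at 72 h, and fibroblasts hold 69.3% or more of Pdgfra in all 6 libraries.

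Pdgfa encodes the chain that acts on PDGFRα. Its level was highest in mural cells, at 241 CPM (216 to 269) in WT sham, 353 (311 to 399) in WT 24 h and 263 (217 to 315) in WT 72 h, and at 208 (187 to 230), 296 (254 to 342) and 124 (95.8 to 158) CPM in KO. The 24 h library was the highest of each genotype and KO 72 h was the lowest of all. Relative to sham, the log2 ratio at 24 h was 0.55 (0.31 to 0.79) in WT and 0.51 (0.24 to 0.77) in KO. It was larger among pericytes alone, at 0.92 (0.39 to 1.46) in WT and 0.79 (0.21 to 1.38) in KO. Among smooth muscle cells of KO it was also larger, at 0.71 (0.38 to 1.03). WT 24 h held 49 smooth muscle cells, too few for a ratio. The mural ratio was −0.01 in WT with doublets removed at 1.6% per 1000 cells in place of 0.8%, and 0.15 in WT and −0.01 in KO with cells thinned to 1000 UMIs. Without the mixed cluster, 36 mural cells of KO 72 h were left, with 212 CPM of Pdgfa (149 to 292). The 6 platelet markers summed in mural cells to 19.97, 1220 and 83.8 CPM in WT sham, 24 h and 72 h and to 260, 77.7 and 1464 CPM in KO, and the 8 neutrophil markers to 503, 2358 and 342 CPM in WT and 246, 4564 and 3732 CPM in KO; their part was not tested. Platelets, which release PDGF from their granules, carried 81.8 to 226 CPM of Pdgfa in the 4 libraries with at least 50 of them, on 8 to 11 UMIs each.

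In endothelial cells Pdgfa stood at 14.7, 67.0 and 106 CPM in WT sham, 24 h and 72 h and at 18.9, 38.9 and 53.8 CPM in KO. Both ligation times were above sham in both genotypes. At 24 h the log2 ratio to sham was 2.19 (1.86 to 2.51) in WT and 1.04 (0.68 to 1.40) in KO, and with each cell weighted equally it was 2.40 and 1.18. The KO ratio was under 2-fold with TMM scaling (0.89), removal of doublets at 1.6% (0.93) and thinning (0.96). The ratio between 72 h and 24 h was 0.66 (0.35 to 0.96) in WT, but −0.66 with each cell weighted equally and −0.76 with thinning, so that the order of those libraries depends on how cells are weighted; in KO it was 0.47 (−0.01 to 0.94). The 6 platelet markers in endothelial cells summed to 34.7, 90.7 and 311 CPM in WT and to 32.1, 119.7 and 565 CPM in KO, in the same order as Pdgfa, and their part was not tested.

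Among endothelial clusters with at least 50 cells, the angiogenic-like one carried the most Pdgfa. There the gene stood at 40.4, 137 and 131 CPM in WT and 106, 104 and 68.8 CPM in KO, against 14.0, 10.4 and 18.4 CPM in WT and 12.4, 11.1 and 22.4 CPM in KO in the capillary-like cluster. The angiogenic-like cluster held 8.90%, 34.3% and 36.9% of endothelial cells in WT sham, 24 h and 72 h and 6.02%, 28.6% and 73.4% in KO. In KO the level within that cluster at 24 h did not exceed that at sham (log2 ratio −0.03, −0.54 to 0.47), while in WT it did (1.76, 1.07 to 2.53). The capillary-like cluster, which held 51.1% of endothelial cells in WT sham and 55.9% in KO sham, held 7.92% in KO 72 h. The endocardial-like cluster stood at 23.6 CPM in WT sham and, in only 31 cells, at 246 CPM in WT 24 h.

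Fibroblasts carried 13.8, 11.3 and 64.7 CPM of Pdgfa in WT sham, 24 h and 72 h and 29.2, 14.5 and 29.6 CPM in KO. WT 72 h was the highest library, and KO sham was above WT sham. At 72 h the log2 ratio to 24 h was 2.52 (1.96 to 3.13) in WT and 1.03 (0.45 to 1.65) in KO; with each cell weighted equally these were 1.21 and 0.51, and without doublet removal 1.32 and 0.76. Without the clusters mostly from KO 72 h, Pdgfa stood at 31.0 CPM on 14 UMIs in WT 72 h and at 15.1 CPM on 3 UMIs in KO 72 h. By cluster, Pdgfa stood at 7.19 CPM in fibroblasts led by Clec3b and Dpep1, at 68.3 CPM in those led by Dkk3 and Wif1, and at 54.9 CPM in those led by Cthrc1, Col1a1 and Col1a2, with the libraries summed. In KO 72 h the 6 platelet markers, all detected, summed to 1088 CPM in fibroblasts against 66.9 to 288 CPM elsewhere, and their part was not tested.

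Monocyte/macrophage cells carried 13.3, 14.1 and 23.5 CPM of Pdgfa in WT and 14.95, 11.9 and 22.2 CPM in KO. The 72 h libraries were the highest of both genotypes, with a log2 ratio to 24 h of 0.74 (0.46 to 1.04) in WT and 0.89 (0.62 to 1.17) in KO. The WT ratio was −0.13 with cells thinned, and the KO ratio was 0.95 without the clusters mostly from KO 72 h. By the number of UMIs, these cells were the main holders of Pdgfa at 72 h, with 53.4% of its UMIs in WT and 43.1% in KO, where mural cells had held 45.5% and 39.8% at sham. Neutrophils carried 0.47 to 1.13 CPM in the 6 libraries.

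Pdgfd encodes a PDGFRβ ligand that needs proteolytic release. It was mainly endothelial, at 75.0, 41.0 and 35.0 CPM in WT sham, 24 h and 72 h and at 72.0, 65.4 and 23.7 CPM in KO. The sham libraries were the highest, with overlapping intervals, and KO 72 h was the lowest. The log2 ratio between 24 h and sham was −0.87 (−1.15 to −0.60) in WT and −0.14 (−0.39 to 0.11) in KO, and that between 72 h and 24 h was −0.23 (−0.71 to 0.24) in WT and −1.46 (−2.08 to −0.89) in KO. The level at 72 h was below that at sham in both genotypes; in WT most of the difference was present at 24 h, and in KO most lay between 24 h and 72 h. The KO ratio between 72 h and 24 h was −0.98 with cells of at least 1500 UMIs and −2.25 with cells weighted equally, and with equal weights the WT ratio was 0.14.

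The arterial-like cluster carried the most Pdgfd, at 124 and 74.4 CPM in WT sham and 24 h and at 107 and 105 CPM in KO, against 58.5 and 40.5 CPM in WT and 62.3 and 65.8 CPM in KO in the capillary-like cluster. In the angiogenic-like cluster Pdgfd stood at 24.2, 14.8 and 31.8 CPM in WT sham, 24 h and 72 h. In KO it stood there at 39.1, 43.6 and 11.1 CPM. The log2 ratio between 72 h and 24 h in this cluster was 1.10 (0.10 to 2.20) in WT and −1.98 (−3.26 to −0.84) in KO. Smooth muscle cells, the other source in vessel walls, carried 30.6 CPM in WT sham and 22.1 CPM in KO sham, on 32 and 30 UMIs, while pericytes had 3 UMIs in WT sham and 0 in KO sham. Mural cells as a whole stood at 26.6, 5.56 and 4.53 CPM in WT and at 17.3, 8.26 and 5.73 CPM in KO. The mural ratio between 24 h and sham was −2.26 (−4.21 to −0.78) in WT and −1.07 (−2.79 to 0.31) in KO, on 4 and 5 UMIs at 24 h. The share of smooth muscle cells among mural cells was 62.9% and 47.1% in WT sham and 24 h and 69.3% and 37.5% in KO.

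Endothelial cells held 88.3% to 93.1% of the Pdgfd UMIs in the sham and 24 h libraries and 68.75% and 49.2% in WT 72 h and KO 72 h, and fibroblasts held most of the Pdgfra UMIs. The 250 bases before the annotated start of both genes are shown as those of a ligand and a receptor held mainly by different classes, from the RefSeq promoter table of GRCm38.p6, 5′ to 3′, where 4 of the 6 genes had an entry. Capitals mark letters that match a TATA box, at any position of the window.
Pdgfd, chr9:6168236-6168485, plus strand: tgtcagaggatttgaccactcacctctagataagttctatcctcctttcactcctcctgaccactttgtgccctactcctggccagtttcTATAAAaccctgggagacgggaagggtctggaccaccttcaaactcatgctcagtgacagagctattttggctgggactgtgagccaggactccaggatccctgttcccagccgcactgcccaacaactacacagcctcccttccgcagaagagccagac
Pdgfra, chr5:75152001-75152250, plus strand: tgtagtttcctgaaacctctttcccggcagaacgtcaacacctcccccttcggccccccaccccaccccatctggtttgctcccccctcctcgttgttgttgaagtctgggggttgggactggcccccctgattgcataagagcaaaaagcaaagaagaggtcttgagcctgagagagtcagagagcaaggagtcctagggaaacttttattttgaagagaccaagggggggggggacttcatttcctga
The motifs searched on both strands were the TATA box, TATAAA, and the GC box, GGGCGG. Pdgfd had 1 match to the TATA box and none to the GC box, and Pdgfra had neither. Of 32851 promoters of this length, 12.4% held the first motif and 32.7% the second. The windows were 53.6% and 54.4% G and C, against a median of 52.4%. These matches are a description of the letters.

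Pdgfc, a ligand of PDGFRα, was the rarest of the 6 genes, with 412 UMIs in all kept cells. In monocyte/macrophage cells it stood at 1.98, 1.43 and 4.43 CPM in WT sham, 24 h and 72 h and at 3.77, 0.89 and 3.17 CPM in KO. The 24 h library was the lowest of each genotype, with log2 ratios between 72 h and 24 h of 1.63 (0.78 to 2.62) in WT and 1.83 (0.93 to 2.79) in KO, and 1.84 in KO without the clusters mostly from KO 72 h. In fibroblasts WT 72 h reached 9.54 CPM on 32 UMIs, against 1.17 CPM on 3 UMIs in WT 24 h and 2.69 CPM on 8 UMIs in KO 72 h. Its highest level by cluster was in the endocardial-like cells, at 32.9 CPM with the libraries summed, where WT sham stood at 51.9 CPM (37.7 to 69.7) and KO sham at 23.9 CPM (14.2 to 37.8). The capillary-like, arterial-like and angiogenic-like endothelial clusters had 0 of its UMIs in all 6 libraries.

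Pdgfra encodes PDGFRα. In fibroblasts it stood at 522 CPM (500 to 545) in WT sham, 448 (422 to 475) in WT 24 h and 128 (116 to 140) in WT 72 h, and at 476 (456 to 496), 437 (410 to 464) and 130.5 (118 to 144) CPM in KO. The 72 h libraries were the lowest of both genotypes and did not overlap the others. The log2 ratio between 72 h and 24 h was −1.81 (−1.97 to −1.65) in WT and −1.74 (−1.91 to −1.57) in KO, and the genotypes at 72 h differed by 0.03 (−0.17 to 0.23). Between 24 h and sham the ratios were −0.22 and −0.12. With each cell weighted equally the ratio between 72 h and 24 h was −1.02 in WT and −1.95 in KO, and thinned to 1000 UMIs it was −0.53 and −1.92. KO against WT at 72 h was then −0.83 with equal weights and −1.37 with thinning. Without the clusters mostly from KO 72 h, 47 fibroblasts of WT 72 h and 33 of KO 72 h were left, and their Pdgfra stood at 359 CPM (306 to 419) and 568 CPM (468 to 683), so that the KO value was above that of KO 24 h. The 13 monocyte/macrophage markers, all detected, summed to 8131 CPM in fibroblasts of KO 72 h, against 123 to 548 CPM in the other libraries, and their part was not tested.

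The lower level at 72 h went with a change in which fibroblasts were present, and the part of this change was not tested. Fibroblasts led by Clec3b and Dpep1 carried the most Pdgfra in every library with at least 50 of them, at 621 and 561 CPM in WT sham and 24 h and at 601 and 609.9 CPM in KO; those led by Cthrc1, Col1a1 and Col1a2, with the activation markers Postn and Tnc, carried 92.4 CPM in WT 72 h and 115 CPM in KO 72 h. The Clec3b cluster held 78.8%, 54.8% and 22.8% of fibroblasts in WT and 66.2%, 53.3% and 2.23% in KO. The Cthrc1 cluster held 1.06%, 2.01% and 67.1% in WT and 0.22%, 1.65% and 67.5% in KO, and 848 of its 960 cells came from KO 72 h. In the few Clec3b fibroblasts left at 72 h, 34 in WT and 28 in KO, Pdgfra stood at 529 CPM (443 to 626) and 612 CPM (503 to 737). A cluster led by Cxcl5, Cxcl1 and Ptx3, most of it from the 24 h libraries, stood at 389 CPM. This Cxcl5 cluster also had the activation markers Timp1 and Tnc among its leading genes, with 5 genes of that list detected. The cluster led by Dkk3 and Wif1 stood at 179 CPM, and that led by Lum and Fbln1, 29.9% of the fibroblasts of KO 72 h, at 78.4 CPM.

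Mesothelial cells, which line the surface of the heart, were the other holders of Pdgfra. They carried 281 CPM (242 to 325) in the 18 cells of WT 72 h and 164 CPM (129 to 204) in the 228 cells of KO 72 h, against 9.54 CPM on 2 UMIs in the 9 cells of WT sham and 48.5 CPM on 17 UMIs in the 19 cells of KO sham. Both 72 h levels were above those of the fibroblasts of the same library, 128 and 130.5 CPM. They held 29.9% and 15.3% of its UMIs in WT 72 h and KO 72 h. Endothelial cells carried 3.18 to 8.97 CPM in the 6 libraries, and mural cells 0 to 2 UMIs in all but KO 72 h.

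Of fibroblasts, 91.3%, 87.9% and 64.4% had a UMI of Pdgfra in WT and 86.2%, 85.2% and 15.4% in KO, and thinned to 1000 UMIs the shares were 35.0%, 34.0% and 21.1% in WT and 36.6%, 32.8% and 10.3% in KO. Neutrophils, the background, had 0 to 0.43% before thinning. The median depth of fibroblasts was 8823, 10746 and 11571 UMIs in WT and 8782.5, 9548.5 and 1071 in KO. The thinned shares were lowest in the 72 h library of each genotype, as the levels were.

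Pdgfrb encodes PDGFRβ, the receptor of the endothelial PDGF-B. In mural cells it stood at 848 CPM (799 to 898) in WT sham, 841 (775 to 910) in WT 24 h and 754 (675 to 839.6) in WT 72 h, and at 629 (592 to 667), 940 (865 to 1021) and 460 (404 to 522) CPM in KO. The WT libraries overlapped in their intervals, while the KO libraries did not: KO 24 h was the highest of the 6 and KO 72 h the lowest. The log2 ratio between 24 h and sham was −0.01 (−0.16 to 0.13) in WT and 0.58 (0.43 to 0.73) in KO, and that between 72 h and 24 h was −0.16 (−0.35 to 0.04) in WT and −1.03 (−1.25 to −0.81) in KO.

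The makeup of the class also differed between these libraries, and its part in both KO ratios was not tested. The share of pericytes was larger at 24 h than at sham in both genotypes. Pericytes carried 1981 CPM in WT sham, 1784 in WT 24 h, 1508 in KO sham and 1483 in KO 24 h, and smooth muscle cells 539 CPM in WT sham, 443 in KO sham and 514 in KO 24 h. Pericytes made up 35.4% and 50% of mural cells in WT sham and 24 h and 27.8% and 57.6% in KO. Within pericytes the ratio between 24 h and sham was −0.15 (−0.34 to 0.04) in WT and −0.02 (−0.22 to 0.17) in KO. At 72 h, 90.0% of the mural cells of KO were in a cluster with markers of both kinds (Rgs5, Tagln and Acta2), with a Pdgfrb level of 249 CPM, and this cluster was 92.3% from that library. Without it, 36 mural cells of KO 72 h were left, with a Pdgfrb level of 903 CPM (768 to 1056), an interval that overlaps that of KO 24 h. The KO ratio between 72 h and 24 h was −0.46 in mural cells of at least 1500 UMIs, −0.78 with TMM scaling, −0.92 without doublet removal and −2.10 with cells weighted equally. The 13 monocyte/macrophage markers, all detected, summed to 9885 CPM in mural cells of KO 72 h, against 113 to 987 CPM in the other libraries, and their part was not tested. The pericytes kept at 72 h, 35 in WT and 21 in KO, carried 922 CPM (815 to 1040) and 1470 CPM (1213 to 1766), so that WT was the lower library there.

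**Figure D4:**
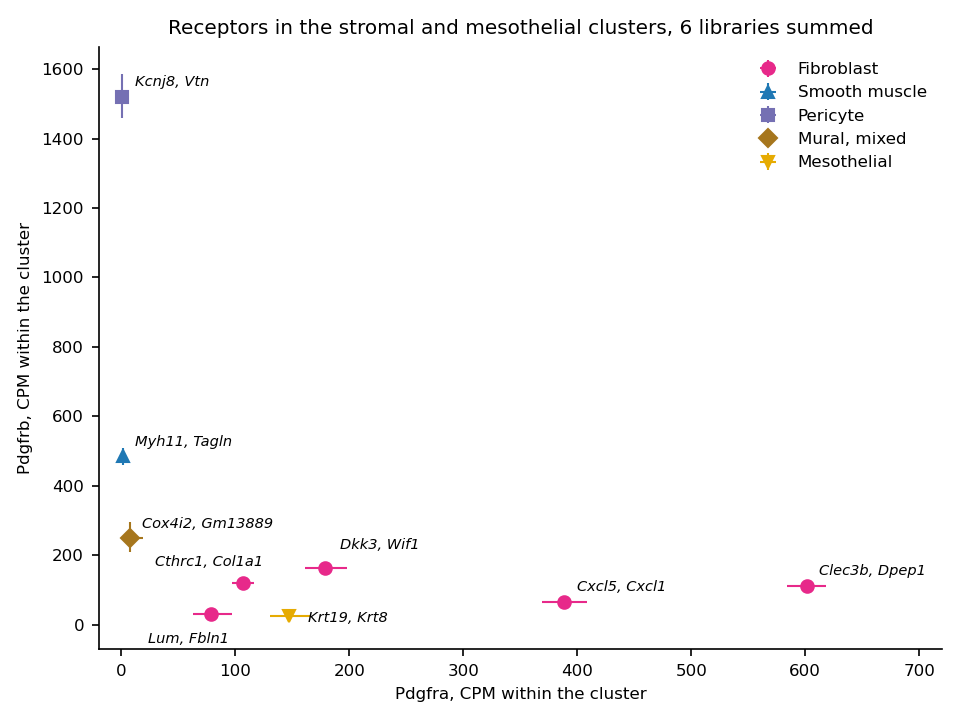
Pdgfra (horizontal) against Pdgfrb (vertical), both in CPM within the cluster with the 6 libraries summed, for the clusters of fibroblasts, mural cells and mesothelial cells, named by leading genes; bars are exact 95% Poisson intervals. Pericytes (1521 CPM) and smooth muscle cells (485 CPM) lie along the Pdgfrb axis, and fibroblasts spread along the Pdgfra axis from 78.4 to 601 CPM.

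Fibroblasts carried both receptors. Their Pdgfrb stood at 113, 85.2 and 115 CPM in WT sham, 24 h and 72 h and at 116, 105 and 91.5 CPM in KO, and the log2 ratio between 72 h and 24 h was 0.43 (0.19 to 0.68) in WT and −0.20 (−0.45 to 0.05) in KO. Unlike Pdgfra, it therefore stayed within 2-fold over time in both genotypes, though these ratios were −1.06 and −1.05 with cells thinned to 1000 UMIs, and −0.22 in WT with cells weighted equally. Without the clusters mostly from KO 72 h it stood at 70.9 CPM in WT 72 h and 136 CPM in KO 72 h, on 32 and 27 UMIs. Pdgfrb stood at 113 CPM in the Clec3b cluster and 120 CPM in the Cthrc1 cluster, which differed several-fold in Pdgfra. Of single fibroblasts, 52.6%, 46.2% and 41.6% in WT and 48.0%, 51.6% and 3.98% in KO had UMIs of both receptors, while in mural cells the share was 0.96% or less in each library. The low share in KO 72 h is that of cells with a median of 1071 UMIs, 76.5% of which had neither receptor detected.

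Counts over the 7 comparisons used gene-by-class values with at least 30 UMIs over both libraries, in classes of at least 50 cells in both, and a threshold of 2-fold by the point value. Between 24 h and sham, 3 of 16 member values in WT passed it, 2 higher and 1 lower, where 9.78% of all 46817 values did; in KO 7 of 17 did, 1 higher and 6 lower, against 10.5% of all values. Between 72 h and 24 h, 6 of 13 did in WT, 3 in each direction, against 20.7%, and 11 of 15 in KO, 5 higher and 6 lower, against 20.1%. The share of member values past 2-fold exceeded that of all values in each of these comparisons, on few values. The comparisons of a genotype share the 24 h library, so their values are not independent of each other.

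The 7 values of KO between 24 h and sham were endothelial Pdgfa, the only higher one, and, lower, Pdgfa and Pdgfb in fibroblasts, Pdgfb and Pdgfc in monocyte/macrophage cells, Pdgfd in mural cells and Pdgfb in neutrophils. Fibroblast Pdgfb stood at 11.5 CPM in KO sham on 51 UMIs and at 0 UMIs in KO 24 h, at least 8.97-fold lower taking 3 counts for the 0. On the log2 scale this bound was −3.17, and −2.51 with doublets removed at 1.6%. Fibroblast Pdgfa was at −1.01, and at −0.83 without doublet removal. The 9 endothelial markers in fibroblasts summed to 160 CPM in KO sham and 17.9 CPM in KO 24 h, and their part was not tested. Neutrophil Pdgfb stood at 9.55 CPM in KO sham and 3.25 CPM in KO 24 h, on 15 and 31 UMIs. Neutrophils with a UMI of Cdh5, Kdr, Egfl7, Emcn or Tie1 were then left out. In the neutrophils left, Pdgfb stood at 5.31 CPM on 7 UMIs in KO sham and 0.86 CPM on 8 UMIs in KO 24 h. These UMIs were too few for the value to be counted. Neutrophils were also the class taken above as the background for Pdgfb.

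For KO against WT, 3 of 18 member values passed 2-fold at sham, 2 higher and 1 lower, where 3.01% of all values did. These were Pdgfa (1.08, 0.62 to 1.56) and Pdgfb (2.73, 1.58 to 4.11) in fibroblasts, higher, and Pdgfc in endothelial cells (−1.79, −2.67 to −0.97), lower. The value of Pdgfa was 0.65 without doublet removal and 0.92 without the clusters mostly from KO 72 h, and that of Pdgfb 4.13 with removal at 1.6%. At 24 h after ligation 1 of 13 passed, against 4.44%, the lower Pdgfb in monocyte/macrophage cells (−1.36, −1.68 to −1.04). At 72 h 5 of 14 passed, against 9.38%. Of these, 3 were lower in KO, Pdgfa in fibroblasts (−1.13, −1.50 to −0.76) and mural cells (−1.08, −1.54 to −0.63) and Pdgfc in fibroblasts (−1.83, −3.16 to −0.68). Fibroblast Pdgfa was under 2-fold without doublet removal (−0.46), with removal at 1.6% (−0.62), with cells weighted equally (−0.72) and with cells of at least 1500 UMIs (−0.98). Mural Pdgfa was under 2-fold with removal at 1.6% (−0.93), with TMM scaling (−0.92) and with cells of at least 1500 UMIs (−0.79). The 2 higher were the receptors in monocyte/macrophage cells, Pdgfra on 30 UMIs against 0, and Pdgfrb on 35 against 6 UMIs, both near 3 CPM. The Pdgfrb ratio was 4.01. It was 1.45 without doublet removal, 1.48 with removal at 1.6% and 5.62 with cells weighted equally.

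Without the clusters that came by over 80% from KO 72 h, none of those 5 values had enough cells or UMIs to be measured, and 0 of the 6 values that could be measured passed. The receptor UMIs in monocyte/macrophage cells of KO 72 h lay in part in the Mpeg1 cluster, 91.8% of it from that library, which carried 4.45 CPM of Pdgfra and 7.79 CPM of Pdgfrb. Most of them lay outside it. Without those clusters, monocyte/macrophage cells of KO 72 h still held 22 UMIs of Pdgfra (2.43 CPM) and 21 of Pdgfrb (2.32 CPM). Those of WT 72 h held 0 and 6 UMIs. The 8 fibroblast markers, all detected, summed to 457 CPM in monocyte/macrophage cells of KO 72 h against 169 to 288 CPM in the other libraries. Their part was not tested.

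**Figure D5:**
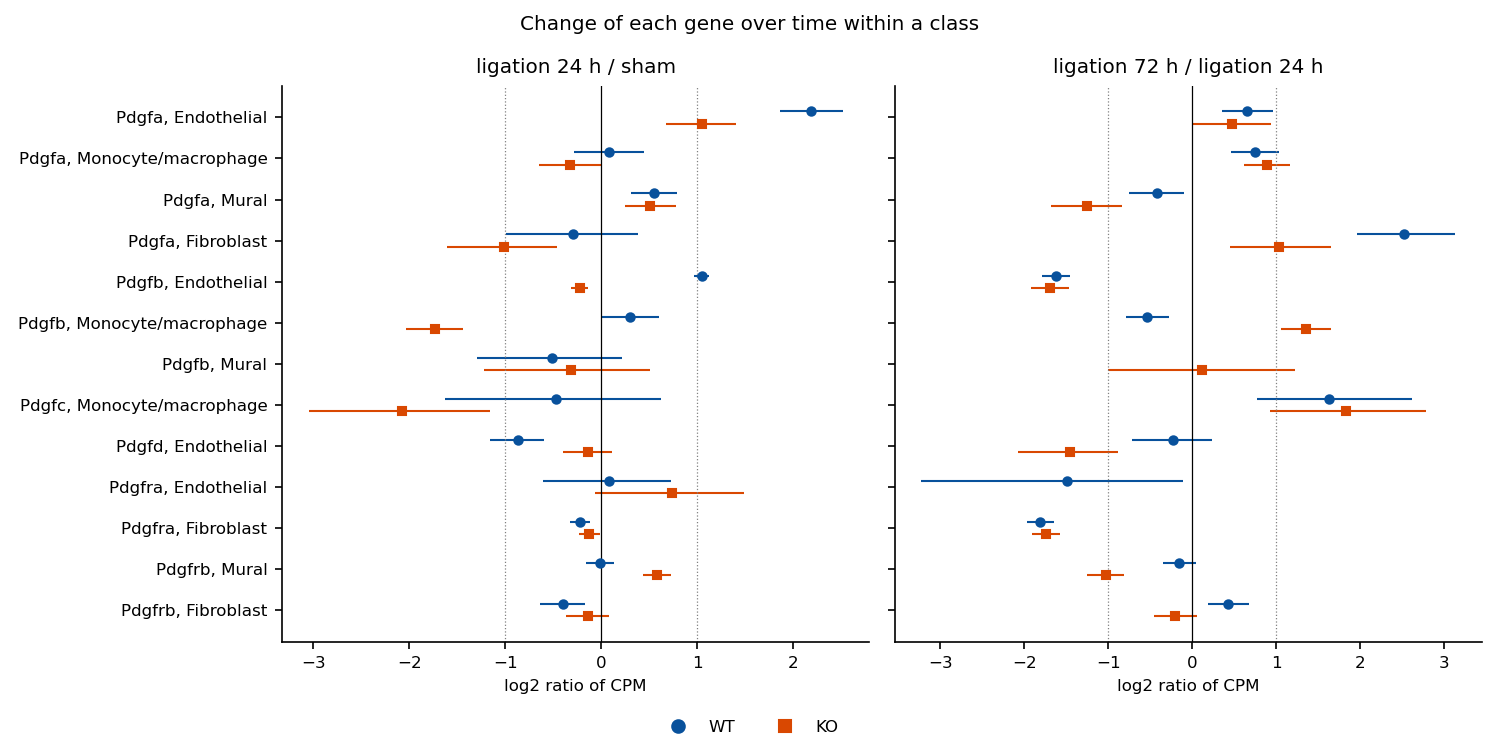
Log2 ratio of the level (CPM) between 24 h after ligation and sham (left) and between 72 h and 24 h after ligation (right) in endothelial cells, monocytes and macrophages, mural cells and fibroblasts, for the genes where at least 3 of the 4 pairs of libraries hold 30 UMIs or more; circles are WT, squares KO, bars are exact 95% intervals (counting error only) and dotted lines mark 2-fold. Endothelial Pdgfb lies at 1.05 in WT and −0.22 in KO on the left and at −1.62 and −1.69 on the right.

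The genes around the family were taken as 3 lists: 13 extracellular partners that bind, process or retain PDGF, 14 transducers next to the receptors, and 10 brakes on their signal. In endothelial cells 4 of 11 measured extracellular partners were at least 2-fold higher at 24 h than at sham in WT and 5 of 12 in KO, with none lower, where 3.88% and 4.63% of all genes measured in the class were that much higher. The median log2 ratio of these partners was 0.79 in WT and 0.80 in KO, beside 0.02 and 0.03 over all genes of the class. Among them was Plaur, the receptor of urokinase, at 19.5 CPM in WT sham and 197 CPM in WT 24 h (log2 ratio 3.34) and at 26.9 and 159 CPM in KO (2.56). In fibroblasts the counts were 4 of 12 higher in WT, and 1 higher and 1 lower of 12 in KO, where 5.12% of all genes were higher in WT and 4.03% higher and 10.8% lower in KO. Thbs1, a matrix protein, stood there at 50.1 CPM in WT sham and 483 CPM in WT 24 h (3.27), and at 163 and 267 CPM in KO.

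Few transducers passed 2-fold. None of 13 in endothelial cells was 2-fold higher in either genotype between 24 h and sham, and 1 was lower in KO. In fibroblasts none of 14 passed in WT and 3 were lower in KO, and in mural cells none of 13 was higher and 1 was lower in KO. In monocyte/macrophage cells none of 12 passed in WT and 2 of 13 were lower in KO, with a median of −0.62 beside −0.29 over all genes. The shares of all genes that were lower in KO were 2.56% in endothelial cells, 10.8% in fibroblasts, 3.25% in mural cells and 9.18% in monocyte/macrophage cells. Among the brakes, 4 of 9 in mural cells were at least 2-fold higher in WT and 2 of 9 in KO, with medians of 0.85 and 0.79 beside 0.01 and 0.12 over all genes, of which 5.98% and 4.77% were that much higher. Spry2, an inhibitor of receptor tyrosine kinase signalling, was one of them, at 42.9 and 114 CPM in WT sham and 24 h (1.41) and at 24.3 and 102 CPM in KO (2.08).

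At 72 h the fibroblast partners of WT split: 2 of 13 extracellular partners were higher than at 24 h and 5 were lower, and 4 of 10 brakes were lower. Of all genes measured in this class, 6.92% were higher and 17.1% lower. The medians were −0.73 for the extracellular partners and −0.89 for the brakes, beside −0.27 over all genes. Sparc, a matrix protein that binds PDGF chains, stood at 1562 CPM in WT 24 h and 6382 CPM in WT 72 h (2.03). Pcsk6, a protease of the proprotein convertase family that activates growth factors, stood at 184 and 47.4 CPM (−1.96), and Lrp1, an endocytic receptor that associates with PDGFRβ, at 824 and 275 CPM (−1.58). In mural cells of KO, Spry1 stood at 101 CPM at 24 h and 24.8 CPM at 72 h (−2.02, on 61 and 13 UMIs), and at 45.7 CPM on 8 UMIs at 72 h without the mixed cluster. Tissue-type plasminogen activator, Plat, which releases active PDGF-C, was higher in mural cells at 24 h than at sham in both genotypes, with ratios of 1.03 in WT and 1.07 in KO.

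Across the 48 class-by-library units of at least 50 cells, the genes whose log2 levels were most like those of each member were listed as a description, without a test; the units share libraries and depth. Pdgfrb was most like S1pr3 (Pearson r 0.982), Ndufa4l2, Heyl, Foxs1 and Arhgap42, and Pdgfra most like Dpep1 (0.977), Svep1, Htra3, Medag and Gsta3. Pdgfb was most like Cd36 (0.941), Adgrl4, Gpr4, Gpihbp1 and Adgrf5, and Pdgfd most like Gm12002 (0.939), Caskin2, Meox2, Cyp4b1 and Adgrf5. Pdgfa was most like Csrp1 (0.907), Mylk, Lims1, Gucy1b1 and Vcl, and all 5 of these were again among its closest 5 without KO 72 h, where the count was 4 for Pdgfrb and 3 each for Pdgfra, Pdgfb and Pdgfd. Pdgfc had no close match, its highest r being 0.709 with Tatdn3, and 1 of its 5 was kept.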

How the data were processed

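The deposited matrices hold UMI counts, as whole numbers for each gene in each cell. Per the file headers the authors used Cell Ranger 6.0.0, and the submitters' processing notes name mm10. Whether strand was used in counting is not given in the sources used here; 5 of the 6 genes overlap an annotated gene on the other strand. Every deposited cell had at least 500 UMIs, and the library totals were between 20995280 and 45649061 UMIs.

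Cells with under 200 genes or over 20% mitochondrial UMIs were left out. Scrublet scores were used to remove doublets at 0.8% per 1000 cells, because its automatic threshold marked 0 to 19 cells per library. The 6 libraries were clustered jointly in scanpy 1.11.5 and Leiden (leidenalg 0.10.2, resolution 1) on 30 principal components of 2000 variable genes, and clusters were named from marker lists. The names are rebuilt here and are not the submitters'. A cluster needed 3 detected markers of its class. Subtypes ending in "-like" name the list in which a cluster stood highest above the clusters of its class, with no minimum. Pericytes, smooth muscle cells and a mixed cluster were pooled as mural cells after the clusters had been seen.

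UMIs were summed per class and library. Thinning drew 1000 UMIs at random from each cell and left out cells with fewer. A value was counted as different from 2-fold upward, with at least 30 UMIs over the pair and at least 50 cells in each library; 0 UMIs were replaced by 3 to give a bound. The ratio script was tested on simulated counts. Genes reported are the 6 members, Trpm4, up to 4 partner genes per class and comparison past 2-fold with at least 100 CPM in the higher library, and the 5 genes most like each member by Pearson r of log2(CPM + 10) among genes with at least 500 UMIs. Members, lists and rules were chosen with earlier results of these data known. The immediate-early list, the separate counting of pericytes and smooth muscle cells, and the runs without clusters that came by over 80% from 1 library were chosen after seeing these data. TMM scaling used edgeR 4.0.16 in R 4.3.3. Gene positions came from GENCODE of GRCm38.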

Additional observations from a re-analysis of the deposited data

Results flagged for a closer look

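Pdgfb moved in opposite directions in WT and KO in 3 places, and none of these differences could be tested with 1 library per group. In endothelial cells the log2 ratio between 24 h after ligation and sham was 1.05 in WT and −0.22 in KO. In monocyte/macrophage cells the same ratio was 0.30 in WT and −1.74 in KO. The WT direction was not kept with doublets removed at 1.6% per 1000 cells (−0.02), and within the Mgl2 cluster of macrophages the ratio was 1.22 in WT and 0.09 in KO, so that the opposite directions were absent there. In monocyte/macrophage cells the ratio between 72 h and 24 h after ligation was −0.54 in WT and 1.35 in KO. The comparisons of each genotype share the 24 h library, so the last 2 pairs are not separate observations.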

How the results depend on the processing

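Every one of the 106 member values was recomputed under up to 14 alternatives, 1331 recomputations in all. Of these, 1236 lay within the 95% counting interval of the value in the report and 92 outside it, and 3 turned the direction of a value past 2-fold. Counting values under 2-fold too, 57 recomputations of 34 values changed sign, 16 of them with thinning, 16 with cells weighted equally and 12 with removal of doublets at 1.6%. Of the 36 values past 2-fold, 12 were under it in at least 1 alternative. The 3 recomputations that turned were Pdgfb in neutrophils of KO between 72 h and 24 h, −1.52 in the report but 0.20 with cells of at least 1500 UMIs and 0.90 with cells weighted equally, on 1 and 31 UMIs, and Pdgfra in endothelial cells of WT between 72 h and 24 h, −1.50 but 1.36 with cells weighted equally, on 5 and 28 UMIs. The cause was not tested.

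The member values past 2-fold numbered 3 and 7 between 24 h and sham in WT and KO, 6 and 11 between 72 h and 24 h in WT and KO, and 3, 1 and 5 for KO against WT at sham, 24 h and 72 h. Without doublet removal they were 10 between 72 h and 24 h in WT and 4 for KO against WT at 24 h. With removal at 1.6% they were 6, 2 and 2 for KO against WT at sham, 24 h and 72 h. With cells of at least 1500 UMIs they were 5 between 72 h and 24 h in KO and 1 for KO against WT at 72 h. Thinned to 1000 UMIs per cell, they were 1 and 1 between 24 h and sham, 3 and 7 between 72 h and 24 h, and 0 and 2 for KO against WT at sham and 72 h, with fewer values measured. With cells weighted equally they were 5 between 24 h and sham in WT and 3 for KO against WT at 24 h. Allowing the members among the variable genes gave 2 for KO against WT at 24 h. A minimum of 10 counts gave 5 and 12 between 24 h and sham, 10 between 72 h and 24 h in WT, and 7, 2 and 9 for KO against WT; a minimum of 100 gave 3 between 24 h and sham in KO, 7 between 72 h and 24 h in KO, and 1 and 2 for KO against WT at sham and 72 h. Without the clusters from 1 library they were 3 and 5 between 72 h and 24 h and 0 for KO against WT at 72 h. TMM scaling, Leiden resolutions of 0.5 and 2, the runs without endothelial UMIs and the separate counting of pericytes and smooth muscle cells kept each count within 1.5 times.

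No paired analysis was possible because each group has 1 library. Depth limits Pdgfc, receptors outside stromal cells and the shallow cells of KO 72 h, and leaving out a replicate could not be done.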
